A study of Mus musculus with 4 samples.

Results

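The genes described here are the Wnt ligands, their receptors, their secreted inhibitors and the proteins that relay or limit the signal inside the cell. They were taken by symbol from a table of 23281 genes: every Wnt, frizzled (Fzd), Dickkopf (Dkk, with Dkkl1), secreted frizzled-related (Sfrp), Lgr4 to Lgr6 and R-spondin (Rspo) gene, and 19 further named genes, which gave 64 genes. The rule itself uses no expression value. RNA was sequenced from 3 libraries of mouse horizontal basal cells (HBCs), the reserve stem cells at the base of the olfactory epithelium, grown in vitro from wildtype mice to passage 3 and not sorted. They were set against 1 library of respiratory basal cells (RBCs), the stem cells of the neighbouring respiratory epithelium, which were microdissected from KRT5-CreER;Ai9-fl(stop)TdTomato mice and sorted for TdTomato+ cells. In those mice a keratin 5 promoter drives an inducible Cre recombinase that switches on the red reporter. The labels give no age, and whether each HBC library had its own animal is not stated. The RBC library has no replicate. Tissue of origin, genotype, culture and sorting all differ between the groups and cannot be told apart.

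Wnt proteins are lipid-modified signals that are acylated by Porcn and carried to the surface by Wls. They bind a frizzled receptor together with Lrp5 or Lrp6, which stops the Axin and Apc complex from marking beta-catenin (Ctnnb1) for destruction, so that beta-catenin can act with Tcf and Lef factors on target genes such as Axin2. R-spondins, acting through Lgr receptors, remove the ligases Znrf3 and Rnf43 that clear frizzleds from the surface, while Sfrp, Dkk and Wif1 proteins limit the pathway from outside the cell. In epithelia the pathway is known for its part in stem cell maintenance and fate choice.

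Values are FPKM, which count fragments per unit of transcript length, divided by 1 depth factor per library, and are called depth-scaled FPKM below. They are per length, so levels of different genes can be set side by side. Limma was fitted to log2(value + 1) over all 16438 genes that averaged at least 1 over the means of both groups, and 49 of the 64 Wnt pathway genes passed that filter. Calls needed a Benjamini-Hochberg adjusted p below 0.05 together with a difference of 2-fold or more on that scale. All log2 changes are HBC minus RBC. All replication lies in the 3 HBC libraries, so every p-value takes the RBC library to be as variable as those 3. The p-values reflect only how these samples vary, which may be technical.

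Most Wnt pathway genes that differed were lower in the HBC libraries, and the exceptions were the ligand genes Wnt7a and Wnt7b. Of the 49 tested, 32 were called lower in HBCs, 2 were called higher and 15 were not called. Over all genes tested, 34.2% were called lower in HBCs and 12.8% were called higher. The median log2 change was -1.72 over the tested Wnt pathway genes (-1.65 without the 3 listed at 0 in a group) and -0.45 over all genes tested (-0.31 without those listed at 0 in a group). The filter bears on these counts: 11 of the 49 averaged under 1 in HBC libraries and were tested only because the RBC value was high, and 10 of those were called. Axin2 and Lgr5, at 1.60 and 1.42 on average in HBC libraries, would also have failed the filter without signal in the RBC library. Both were called, and both count among the genes at 1 or more in both groups below. Wnt7a, listed at 0 in the RBC library, was tested only because its HBC values were high. Among genes at 1 or more in both groups, 22 of 37 Wnt pathway genes were called lower and 1 was called higher, beside 24% and 14.4% of all 13503 such genes. In bulk samples, fewer cells of a type and less RNA per cell cannot be told apart.

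**Figure D1:**
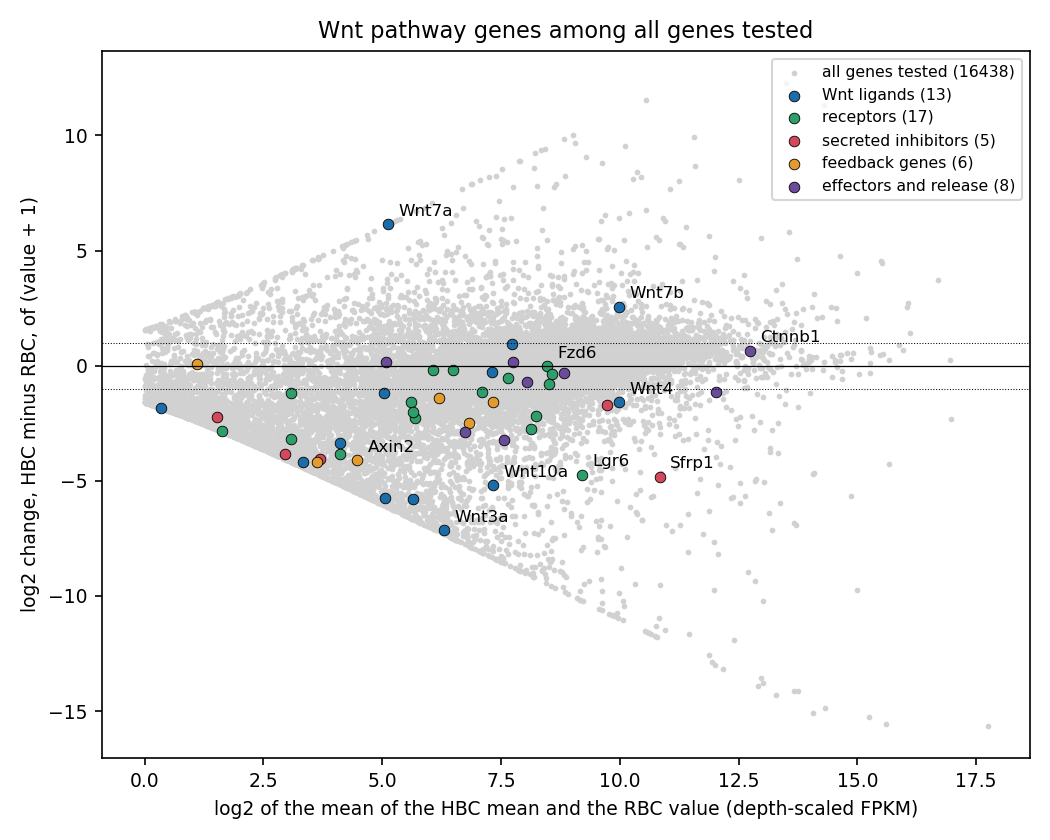
Log2 change (HBC minus RBC, of value + 1) of the 16438 genes tested, in grey, and of the 49 tested Wnt pathway genes, coloured by role, against the log2 of their average level, with both groups weighted equally. Dotted lines mark a 2-fold change, Wnt7a and Wnt7b lie above them, and Wnt3a is the lowest coloured point at -7.13.

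Both groups expressed the basal cell genes Krt5 and Trp63, with Trp63 7.88-fold lower in HBCs (545 against 4296). The RBC library, although sorted for TdTomato+ cells, also held transcripts that mark other cell types. Summed levels of 10 leukocyte markers were 37.7 to 43.7 in HBC libraries and 16033 in RBCs, and those of 10 fibroblast markers were 148 to 165 and 7901. Of these, 9 leukocyte and 9 fibroblast markers were called lower in HBCs. Tyrobp, Fcer1g and Csf1r were listed at 0 in all HBC libraries, whereas no fibroblast marker was at 0 in all of them. Of 8 endothelial markers, 6 were lower in HBCs and 1, Egfl7, was higher (sums 87.6 to 140.1 and 84.6, with Tie1 and Emcn at 0 in all HBC libraries). All tested markers of olfactory neurons (8), sustentacular cells (6), ciliated cells (5) and glia (5) were lower in HBCs, and their sums were 133 to 164, 1301 to 1340, 171 to 207 and 4.45 to 12.4 in HBC libraries and 5463, 44922, 3377 and 299.7 in the RBC library. Stoml3, Rtp1, Cyp2g1, Cyp1a2, Tekt1, Sox10 and Fabp7 were at 0 in all HBC libraries. No marker of these lists was at 0 in the RBC library. Of 8 basal cell markers, 5 were lower in HBCs as well: Krt14, Trp63, Krt15, Ngfr and Icam1 (sums of all 8 were 24664 to 25631, against 63298). Krt5 (18579 on average in HBCs against 26422), Egfr and Itga6 were not called. Only Itga6 was higher in HBCs (1280 against 842). The part of other cell types in the results below was not tested.

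Wnt7b dominated ligand expression in the cultured cells, and Wnt4 dominated it in the RBC library. The summed level of the 19 ligand genes was of similar size in both groups, at 2755, 2808 and 2748 in HBC libraries and 2881 in RBCs. Wnt7b made up 62.6%, 62.4% and 62.4% of that sum in HBC libraries and 10.2% in RBCs. Wnt4 made up 18.2%, 18.7% and 18.5% in HBC libraries and 53.1% in RBCs. A share within 1 library does not depend on the depth factor. With 1 RBC library these shares are a description, and the HBC libraries differed by less than 1 percentage point in both.

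Wnt7b, a ligand of the beta-catenin route in many epithelia, stood at 1726, 1753 and 1715 in HBC libraries and 293 in RBCs. The HBC values lay close together and far above the RBC value, 5.90-fold higher in HBCs (log2 change 2.56, SE 0.02, limma adjusted p = 3.88e-05). Its close relative Wnt7a stood at 61.9, 73.9 and 73.8 in HBC libraries and was listed at 0 in the RBC library (log2 change 6.14, limma adjusted p = 0.000756). Wnt7a passed the filter only through the HBC libraries. A listed 0 in a table of this kind can be a failed estimate, so no fold is given for it. Wnt9a leaned the same way without a call: it was at 294, 284 and 266 in HBC libraries and 144 in RBCs, 1.95-fold higher and just under the 2-fold minimum (limma adjusted p = 0.00455). With equal library medians it passed that minimum (log2 change 1.20), as it did after quantile normalization (1.40).

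The other ligand genes that were called were all lower in HBCs. Wnt4, a ligand that signals with and without beta-catenin according to the tissue, was at 501, 526 and 508 in HBC libraries and 1529.6 in RBCs. It was thus 2.99-fold lower in HBCs but still their second ligand by level (log2 change -1.58, limma adjusted p = 0.000583). Wnt10a, an ectodermal ligand of skin and its appendages, was at 7.24, 6.87 and 8.89 in HBC libraries and 314 in RBCs. It was 41.0-fold lower in HBCs, far outside their spread (log2 change -5.19, limma adjusted p = 0.00129). Wnt3a, a strong activator of beta-catenin, was at 0.454, 0 and 0 in HBC libraries and 158 in RBCs (log2 change -7.13, limma adjusted p = 0.00168). Wnt6 was at 0.621, 0.498 and 1.48 in HBC libraries and 99.5 in RBCs (limma adjusted p = 0.00356). Wnt5b was at 0, 0 and 0.961 in HBC libraries and 66.1 in RBCs (limma adjusted p = 0.00697). HBC values of these 3 genes were of the order of single reads, so no fold is given. All 3 passed the filter only through the RBC library.

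The remaining ligand genes were low or changed by less. Wnt10b was at 0.572, 0 and 0 in HBC libraries and 20.1 in RBCs (limma adjusted p = 0.00600), and Wnt16 was listed at 0 in each HBC library and at 2.53 in the RBC library. Both passed the filter only through the RBC library. Wnt11, known for signalling without beta-catenin, was at 20.2, 20.1 and 18.8 in HBC libraries and 45.7 in RBCs, 2.32-fold lower (limma adjusted p = 0.00581). Its direction turned under quantile normalization (log2 change 0.50). Wnt2b was at 4.47, 1.66 and 1.36 in HBC libraries and 32.3 in RBCs. Library 1 was the highest of the HBC libraries and still far below the RBC value. Its call (limma adjusted p = 0.0281) was lost without HBC library 2 (0.104) or 3 (0.0867). Wnt5a, the best known ligand of the planar polarity route, was at 138, 141 and 153 in HBC libraries and 175 in RBCs and was not called (log2 change -0.28, 95% interval -0.56 to 0.00, limma adjusted p = 0.0654). Under quantile normalization its log2 change was 0.12. Wnt1 and Wnt8a were listed at 0 in every library, and Wnt2, Wnt3, Wnt8b and Wnt9b stayed below 1 in each.

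**Figure D2:**
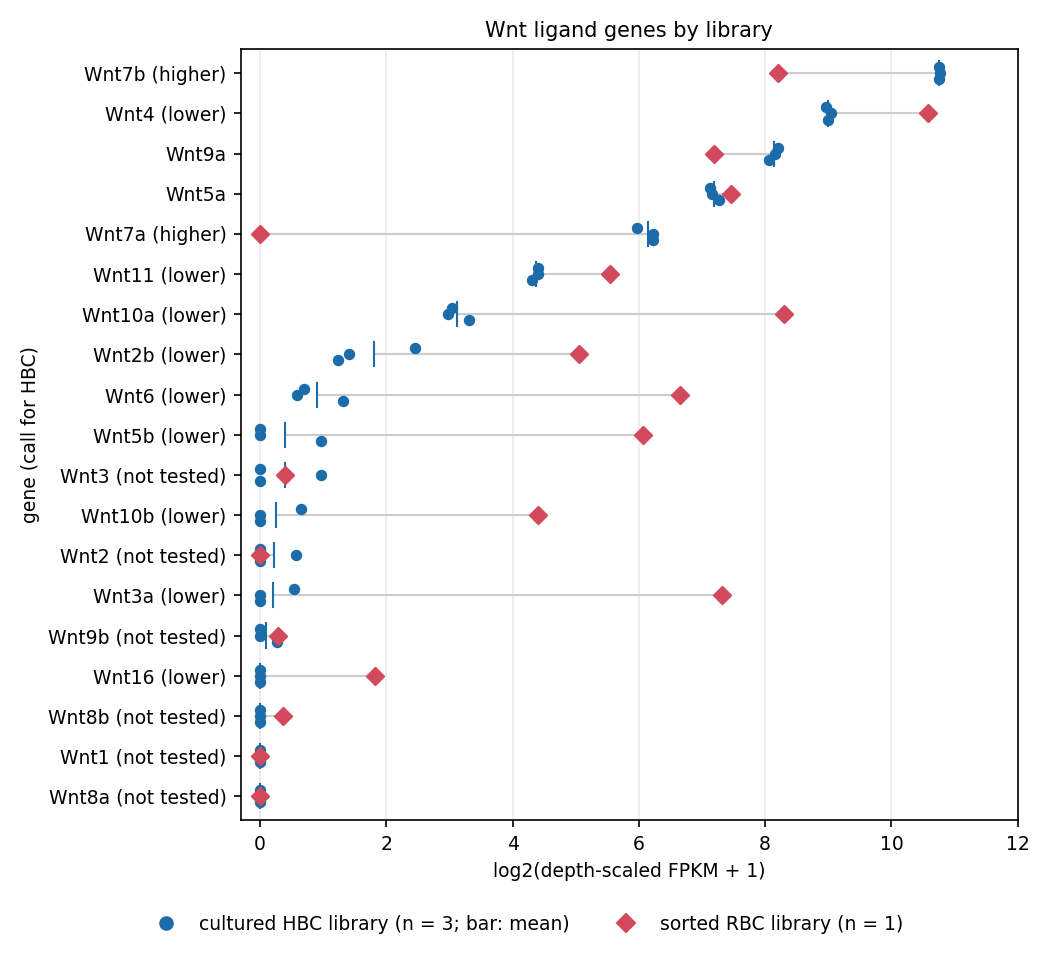
Level of the 19 Wnt ligand genes as log2(depth-scaled FPKM + 1), with a blue point for each of the 3 HBC libraries, a blue bar for their mean and a red diamond for the RBC library, and genes ordered by HBC mean. Wnt7b (1731 in HBCs, 293 in RBCs) and Wnt7a (69.9 and 0) have the diamond left of the points, whereas for Wnt4, Wnt10a, Wnt6, Wnt5b and Wnt3a it lies to the right.

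Several ligand genes lie next to each other on the chromosome, and neighbours did not always go together. In the RefSeq annotation of GRCm38.p6, 4 pairs of ligand genes adjoin with no other protein-coding gene between them. Wnt6 and Wnt10a, on chromosome 1, were both lower in HBCs. Wnt3a and Wnt9a, on chromosome 11, parted: Wnt3a was called lower in HBCs, whereas Wnt9a, the third ligand by level in the cultures, was 1.95-fold higher there. Wnt10b was lower in HBCs beside Wnt1, which was listed at 0 in every library (chromosome 15). Wnt3 and Wnt9b were near 0 in every library (chromosome 11).

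The stretches just upstream of ligand genes with contrasting values are printed here so that they can be read against those values. Each is the 250 bases before a RefSeq start in GRCm38.p6, 5′ to 3′ on the gene's strand, and belongs to a later build than the mm9 of the expression table. Capitals mark 2 motifs searched on both strands: CTTTGAT, the core recognised by Tcf and Lef factors, and GGGCGG, the GC box, whose letters can run into each other where copies adjoin. Wnt3a (chr11:59290752-59291001, minus strand) and Wnt9a (chr11:59306680-59306929, plus strand) are the parting neighbours, and Wnt7a (chr6:91411354-91411603, minus strand) is the ligand gene listed at 0 in RBCs. Wnt5b (chr6:119449387-119449636, minus strand) and Wnt11 (chr7:98834862-98835111, plus strand) are the called ligand genes with a CTTTGAT match. For both, the start with a match is shown, of 3 starts annotated for Wnt5b and 2 for Wnt11.
Wnt3a: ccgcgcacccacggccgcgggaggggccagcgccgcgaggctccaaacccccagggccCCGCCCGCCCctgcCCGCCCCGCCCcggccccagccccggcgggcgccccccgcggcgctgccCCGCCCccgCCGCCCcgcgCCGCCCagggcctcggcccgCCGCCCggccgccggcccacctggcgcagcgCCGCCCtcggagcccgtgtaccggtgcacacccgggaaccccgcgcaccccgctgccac
Wnt9a: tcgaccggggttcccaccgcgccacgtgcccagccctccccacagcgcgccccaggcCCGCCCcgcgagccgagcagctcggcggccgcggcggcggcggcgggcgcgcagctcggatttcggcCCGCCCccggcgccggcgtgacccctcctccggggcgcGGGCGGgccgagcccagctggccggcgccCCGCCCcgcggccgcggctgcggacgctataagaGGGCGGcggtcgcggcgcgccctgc
Wnt7a: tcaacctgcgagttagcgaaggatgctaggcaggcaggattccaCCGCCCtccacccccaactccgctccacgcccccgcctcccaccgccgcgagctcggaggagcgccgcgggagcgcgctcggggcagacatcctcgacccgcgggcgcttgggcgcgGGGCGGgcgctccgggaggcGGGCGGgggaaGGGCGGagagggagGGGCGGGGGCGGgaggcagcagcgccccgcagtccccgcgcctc
Wnt5b: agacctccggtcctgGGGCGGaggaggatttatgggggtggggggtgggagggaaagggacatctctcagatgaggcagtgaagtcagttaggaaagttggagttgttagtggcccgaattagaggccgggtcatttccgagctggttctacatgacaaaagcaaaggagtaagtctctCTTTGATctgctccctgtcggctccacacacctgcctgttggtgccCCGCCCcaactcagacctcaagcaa
Wnt11: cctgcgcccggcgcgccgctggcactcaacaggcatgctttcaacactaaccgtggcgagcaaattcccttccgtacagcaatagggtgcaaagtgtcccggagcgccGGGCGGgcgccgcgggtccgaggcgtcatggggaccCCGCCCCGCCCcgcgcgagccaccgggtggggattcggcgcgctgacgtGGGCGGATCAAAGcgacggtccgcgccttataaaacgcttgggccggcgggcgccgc
In Wnt5b the CTTTGAT match begins 71 bases before the start on the gene's strand, and in Wnt11 it begins 51 bases before the start on the other strand, where it adjoins a GC box. Wnt3a and Wnt9a, which differed in direction, were alike in base composition, at 87.6% and 84.4% G or C. Sequences were found for 42 of the 64 genes. Of their 52 windows, 5.77% held CTTTGAT (Wnt5b, Wnt11 and Sp5) and 65.4% held GGGCGG, beside 3.21% and 32.7% of all 32851 windows of that length in the table. A match is a string of letters and does not show binding.

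Frizzled receptor genes were unequal in their differences: Fzd2, Fzd3, Fzd7, Fzd8, Fzd9 and Fzd10 were called lower in HBCs, whereas Fzd1, Fzd4, Fzd5 and Fzd6 were not called. The 6 called lower are 60% of the family, beside 34.2% of all genes tested, and the median log2 change was -1.17, beside -0.45. Under quantile normalization Fzd7 and Fzd10 alone were called lower and Fzd9 was called higher. Their summed level was 867, 908 and 891 in HBC libraries and 1696 in RBCs. Fzd6 took 38.7%, 40.0% and 40.2% of that sum in HBC libraries and 21.1% in RBCs, while Fzd7 took 9.20%, 7.75% and 7.80% in HBC libraries and 29.0% in RBCs. The leading receptor by level was thus Fzd6 in each HBC library and Fzd7 in the RBC library.

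Fzd7, a receptor of intestinal and other epithelial stem cells, was at 79.7, 70.3 and 69.5 in HBC libraries and 492 in RBCs. All HBC values lay far below the RBC value, which made Fzd7 6.72-fold lower in HBCs (log2 change -2.73, limma adjusted p = 0.00152). Its relatives in the same subfamily differed less: Fzd2 was at 24.0, 24.5 and 23.9 in HBC libraries and 73.0 in RBCs, 3.03-fold lower, and Fzd1 was at 163, 164 and 171 in HBC libraries and 237 in RBCs and was not called (log2 change -0.51). Fzd3, a receptor of axon guidance and planar polarity, was at 20.8, 18.9 and 18.6 in HBC libraries and 80.7 in RBCs, 4.15-fold lower. Its partner in sequence, Fzd6, a planar polarity receptor of skin and hair, was at 335, 363 and 359 in HBC libraries and 357 in RBCs. The RBC value lay within the HBC range, the log2 change was -0.02 with a 95% interval from -0.24 to 0.20, and its sign turned with equal medians (0.22) and under quantile normalization (0.03).

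Fzd10 was at 16.2, 19.7 and 15.8 in HBC libraries and 86.5 in RBCs, 5.01-fold lower (limma adjusted p = 0.00505). Fzd8 was at 82.2, 89.7 and 85.6 in HBC libraries and 189 in RBCs, 2.2-fold lower, and missed the 2-fold minimum with equal medians (log2 change -0.89) and under quantile normalization (-0.73). Its relative Fzd5, which has a part in eye and gut development, was at 84.0, 86.3 and 81.7 in HBC libraries and 96.6 in RBCs and was not called (log2 change -0.20). Fzd4, the receptor for norrin, was at 56.2, 67.1 and 62.5 in HBC libraries and 71.5 in RBCs and was not called either (log2 change -0.21, 95% interval -0.68 to 0.26). Both signs turned under quantile normalization (0.63 for Fzd5 and 0.89 for Fzd4) and with equal medians (0.04 and 0.03). Fzd9 was low, at 5.46, 4.39 and 4.34 in HBC libraries and 12.1 in RBCs. Its call (limma adjusted p = 0.0129) was lost without HBC library 2 (0.0604) or 3 (0.0560), and it was higher in HBCs under quantile normalization (log2 change 1.18).

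The coreceptor genes differed by less than 2-fold between the groups and neither was called. Lrp6 was at 267, 269 and 271 in HBC libraries and 463 in RBCs, 1.72-fold lower with little spread (limma adjusted p = 0.000576). Lrp5 was at 313, 354 and 331 in HBC libraries and 426 in RBCs (log2 change -0.36, 95% interval -0.66 to -0.05, limma adjusted p = 0.0460). Both lay below the 2-fold minimum that a call requires.

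Genes of the R-spondin branch were lower in the cultures, led by Lgr6. All 5 tested of the 7 listed were called lower in HBCs, beside 34.2% of all genes tested. Rspo1 and Rspo3 passed the filter only through the RBC library, and Lgr5, at 1.42 on average in HBC libraries, would have failed it without signal in the RBC library. Lgr6, a receptor that marks stem cells of skin and other surface epithelia, was at 40.3, 43.8 and 40.5 in HBC libraries and 1135 in RBCs. The 3 HBC libraries were alike, and Lgr6 was 27.3-fold lower in them (log2 change -4.74, SE 0.08, limma adjusted p = 0.000260). Lgr4, the most widely expressed member of the family, was at 114, 108 and 105 in HBC libraries and 494 in RBCs, 4.53-fold lower (limma adjusted p = 0.000971). Lgr5, the marker of intestinal and hair follicle stem cells, was at 1.80, 1.24 and 1.22 in HBC libraries and 33.4 in RBCs (limma adjusted p = 0.00206). Lgr4 made up 73.1%, 70.6% and 71.5% of the summed Lgr level in HBC libraries and 29.7% in RBCs, where Lgr6 led with 68.3%. The order of Lgr4 and Lgr6 was thus reversed between the groups, beside summed levels of 157, 153 and 146 in HBC libraries and 1663 in RBCs.

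The R-spondin ligands themselves were low everywhere. Rspo3 was at 1.06, 0.424 and 1.26 in HBC libraries and 16.0 in RBCs, and its call (limma adjusted p = 0.00884) was lost without HBC library 1 (0.0505). Rspo1 was listed at 0 in each HBC library and at 6.23 in the RBC library, and Rspo2 at 0 in all HBC libraries and at 1.18 in the RBC library. Rspo4 was at 0, 0.429 and 0.424 in HBC libraries and 0 in RBCs. Most or all tested markers of each other cell type given above were lower in HBCs as well.

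**Figure D3:**
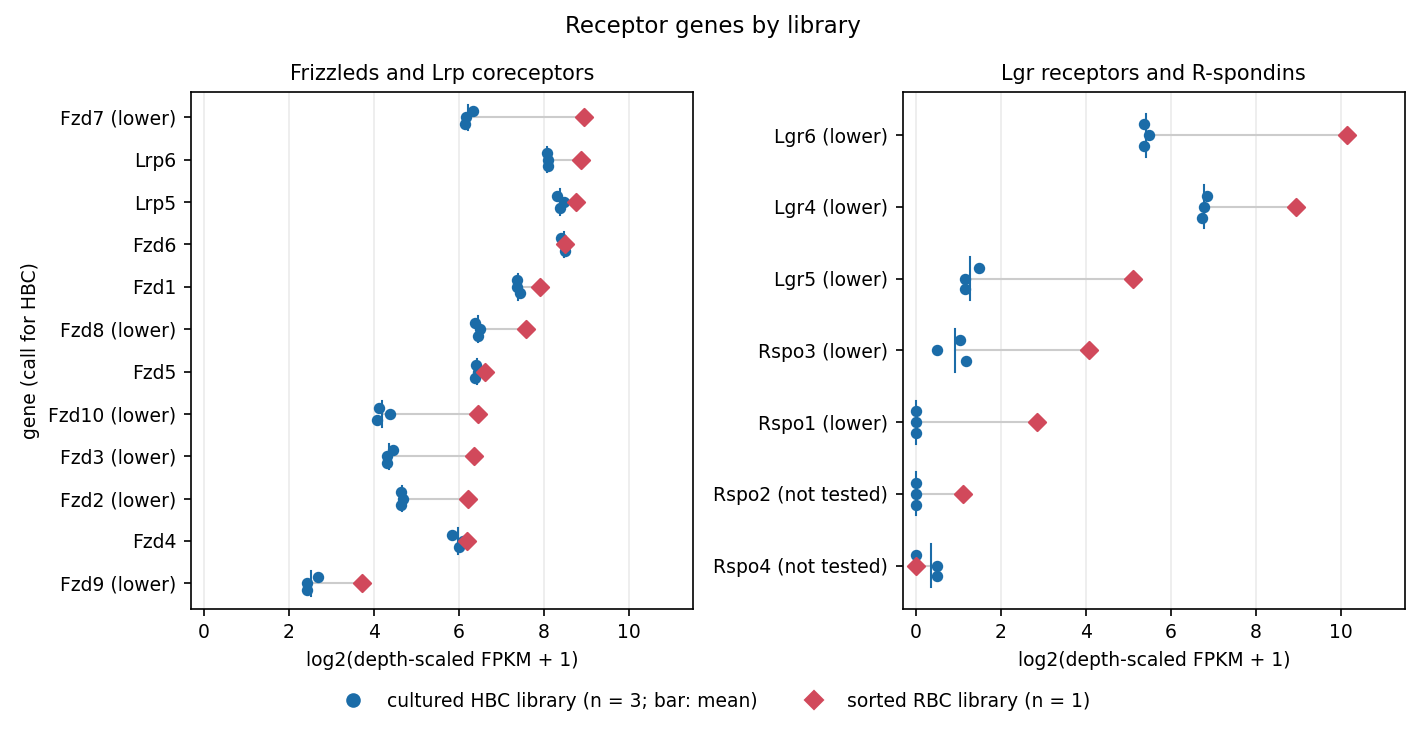
Level of 10 frizzled and 2 Lrp genes (left) and of 3 Lgr and 4 R-spondin genes (right) as log2(depth-scaled FPKM + 1), with a blue point for each of the 3 HBC libraries, a blue bar for their mean and a red diamond for the RBC library. The diamond lies on the points for Fzd6 (352 in HBCs, 357 in RBCs) and farthest to their right for Lgr6 (41.5 and 1135).

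Secreted inhibitors were much lower in the cultures, and only a pair of them, Dkk3 and Sfrp1, were abundant. The 10 genes summed to 530, 499 and 536 in HBC libraries and 4902 in RBCs. Sfrp1, which binds Wnt ligands through a frizzled-like domain, was at 129.8, 110.3 and 134 in HBC libraries and 3554 in RBCs. No HBC library came near the RBC value, and Sfrp1 was 28.5-fold lower in HBCs (log2 change -4.83, SE 0.15, limma adjusted p = 0.000935). Dkk3, a divergent Dickkopf protein whose effect on the pathway varies with context, was at 400, 385 and 399 in HBC libraries and 1299 in RBCs, 3.29-fold lower (limma adjusted p = 0.000359). Dkk3 made up 75.4%, 77.2% and 74.5% of the summed inhibitor level in HBC libraries and 26.5% in RBCs, whereas Sfrp1 made up 24.5%, 22.1% and 25.0% in HBC libraries and 72.5% in RBCs.

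The other inhibitor genes were at the level of single reads in the cultures. Sfrp2 was at 0.644, 0.517 and 0.511 in HBC libraries and 25.2 in RBCs (limma adjusted p = 0.000296). Wif1, Wnt inhibitory factor, was at 0, 0 and 0.451 in HBC libraries and 15.4 in RBCs (limma adjusted p = 0.00483). Both were called lower in HBCs, and the RBC values themselves were modest beside those of Sfrp1. Dkkl1 was at 0, 1.32 and 0 in HBC libraries and 5.29 in RBCs and was not called (limma adjusted p = 0.0728), and it passed the filter only through the RBC library, as did Sfrp2 and Wif1. Dkk1, the classical Lrp antagonist, Dkk2, Sfrp4 and Sfrp5 did not exceed 1.36 in any library, and Dkk4 was listed at 0 in all. Most or all tested markers of each other cell type given above went in the same direction, and their part was not tested.

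Feedback genes, which beta-catenin is known to induce and whose products limit the pathway, were mostly lower in HBCs. Of 6 tested, 5 (83.3%) were called lower, beside 34.2% of all genes tested, and Notum was not called. Nkd1 passed the filter only through the RBC library, and Axin2, at 1.60 on average in HBC libraries, would have failed it without signal in the RBC library. Axin2, the most general of these targets and a scaffold of the destruction complex, was at 2.29, 1.15 and 1.36 in HBC libraries and 42.8 in RBCs (log2 change -4.10, SE 0.32, limma adjusted p = 0.00467). Every HBC value was close to 0 on this scale. Nkd1, a Dishevelled antagonist, was at 0.845, 0.477 and 0 in HBC libraries and 24.5 in RBCs (limma adjusted p = 0.00826), and lost its call with a pseudocount of 0.1 (0.0637). Its relative Nkd2 was better expressed, at 67.9, 94.3 and 80.0 in HBC libraries and 241 in RBCs, 2.98-fold lower. The call of Nkd2 (limma adjusted p = 0.0163) was lost without HBC library 3 (0.0767) and with values as deposited (0.0551).

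The ligases that remove frizzleds from the surface were lower in HBCs too. Rnf43 was at 28.5, 34.4 and 39.1 in HBC libraries and 192 in RBCs, 5.66-fold lower (log2 change -2.48, limma adjusted p = 0.00648). Znrf3 was at 39.7, 38.6 and 40.0 in HBC libraries and 107 in RBCs, 2.73-fold lower (limma adjusted p = 0.00212), with a log2 change of -0.57 under quantile normalization. In neither did the HBC range reach the RBC value. Notum, an enzyme that removes the lipid from Wnt proteins, was at 3.19, 2.05 and 1.52 in HBC libraries and 2.03 in RBCs, which lay within the HBC range (log2 change 0.07, 95% interval -1.20 to 1.33). Its sign turned with values as deposited (-0.02), and it was called higher in HBCs under quantile normalization (1.87). Sp5 was listed at 0 in every library.

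The upstream stretches of Axin2 (chr11:108920099-108920348, plus strand) and Lgr6 (chr1:135105277-135105526, minus strand), a feedback gene and a receptor gene with large differences, are shown with the same marking of motifs.
Axin2: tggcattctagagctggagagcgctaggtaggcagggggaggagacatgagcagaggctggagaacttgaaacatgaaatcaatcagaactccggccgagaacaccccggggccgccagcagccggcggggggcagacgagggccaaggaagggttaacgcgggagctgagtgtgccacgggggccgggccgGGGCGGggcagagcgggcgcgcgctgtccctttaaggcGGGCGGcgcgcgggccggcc
Lgr6: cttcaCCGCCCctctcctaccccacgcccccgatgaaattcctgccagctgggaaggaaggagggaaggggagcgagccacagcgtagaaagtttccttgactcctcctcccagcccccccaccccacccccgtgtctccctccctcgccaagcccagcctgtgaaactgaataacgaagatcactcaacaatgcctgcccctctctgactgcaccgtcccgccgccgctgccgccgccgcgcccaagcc
Neither window held CTTTGAT. The Axin2 window held 2 matches of GGGCGG and the Lgr6 window held 1, and 69.2% and 65.2% of their bases were G or C. The absence of a match says only that these letters are not in these 250 bases.

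Of the genes that carry the signal inside the cell, 2 Tcf genes were called lower in HBCs, whereas the genes of beta-catenin, Apc and Axin1 differed by less than 2-fold. Ctnnb1, beta-catenin, which also serves cell adhesion, was at 8581, 8358 and 8220 in HBC libraries and 5322 in RBCs. It was 1.58-fold higher in HBCs, below the 2-fold minimum but well outside the HBC spread (log2 change 0.66, 95% interval 0.52 to 0.79, limma adjusted p = 0.00277). Axin1 was at 399, 411 and 400 in HBC libraries and 511 in RBCs (log2 change -0.34), and Apc was at 209, 196 and 205 in HBC libraries and 328 in RBCs (log2 change -0.69). Neither was called. These are transcript levels, and the amount or location of beta-catenin protein was not measured.

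Of the Tcf and Lef factors, Tcf7l1, known as the repressive member of the family in stem cells, was at 38.3, 35.8 and 32.6 in HBC libraries and 346 in RBCs, 9.72-fold lower (log2 change -3.25, limma adjusted p = 0.00140). Tcf7l2, the main factor of intestinal epithelium, was at 29.0, 24.2 and 22.2 in HBC libraries and 189 in RBCs, 7.51-fold lower (log2 change -2.87, limma adjusted p = 0.00387). Both HBC ranges lay far below the RBC value. Tcf7 was at 34.4, 30.4 and 43.7 in HBC libraries and 31.5 in RBCs, inside the HBC range, and was not called (log2 change 0.18, 95% interval -0.76 to 1.11), although it was called higher in HBCs under quantile normalization (2.02). Lef1 was listed at 0 in each HBC library and was at 0.868 in the RBC library. The 4 genes summed to 102, 90.3 and 98.4 in HBC libraries and 567 in RBCs. Tcf7 took 33.8%, 33.6% and 44.4% of that sum in HBC libraries and 5.56% in RBCs.

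The machinery that releases ligands was present in both groups. Wls, the carrier of Wnt proteins, was at 2674, 2557 and 2654 in HBC libraries and 5722 in RBCs. It was 2.18-fold lower in HBCs (log2 change -1.12, limma adjusted p = 0.00102) and missed the 2-fold minimum with equal medians (-0.88). Porcn was at 219, 245 and 222 in HBC libraries and 202 in RBCs and was not called (log2 change 0.17, 95% interval -0.13 to 0.48).

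**Figure D4:**
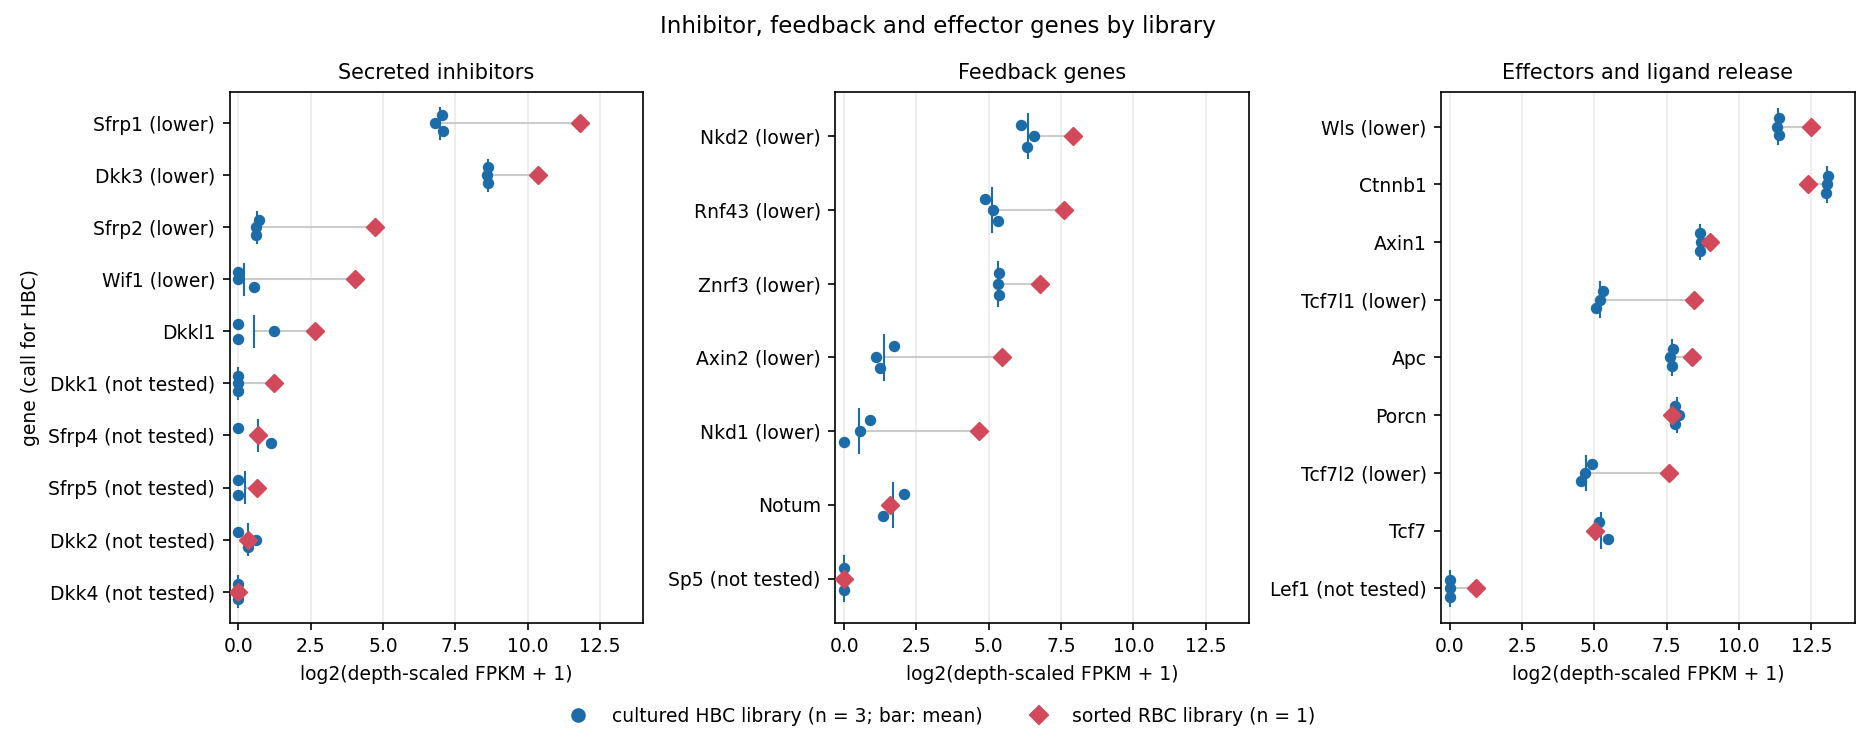
Level of 10 secreted inhibitor genes, 7 feedback genes and 9 effector and ligand release genes as log2(depth-scaled FPKM + 1), with a blue point for each of the 3 HBC libraries, a blue bar for their mean and a red diamond for the RBC library. The diamond lies far right of the points for Sfrp1, Sfrp2, Wif1, Axin2, Nkd1, Tcf7l1 and Tcf7l2, and to their left for Ctnnb1 (8386 in HBCs, 5322 in RBCs).

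Of 90 tested genes of the pathway beyond these families, 7 were called higher in HBCs and 38 (42.2%) were called lower, beside 34.2% of all genes tested, with a median log2 change of -0.59. At 1 or more in both groups, 31 of 81 (38.3%) were called lower, beside the 24% of all such genes. These genes stood in 5 lists by role. Of the 22 tested genes of the destruction complex and cytoplasmic relay, 5 (22.7%) were lower in HBCs and 1 (4.55%) was higher, both below the shares of 34.2% and 12.8% over all genes tested, and the median log2 change was 0.06. Within it Btrc, which recognises marked beta-catenin for destruction, was 4.19-fold lower in HBCs (45.1 ± 3.30, SD, n = 3, against 189), Amer1, a partner of Apc, was 2.76-fold lower (103 ± 9.17 against 286), and the Gsk3 inhibitors Frat1 and Frat2 were 7.39-fold and 4.43-fold lower. Ppp2ca, a phosphatase subunit with many other substrates, was 2.76-fold higher in HBCs (5587 ± 88.8 against 2028). Of the nuclear cofactors of beta-catenin, 8 of 17 (47.1%) were lower in HBCs, beside 34.2% of all genes tested, and none was called higher. Pygo1 was listed at 0 in each HBC library and at 94.0 in the RBC library, and passed the filter only through the RBC library. The corepressors Tle2 (9.82 ± 3.26 against 278) and Tle4 (58.0 ± 11.9 against 275) and the acetyltransferase Crebbp (62.1 ± 6.41 against 186) were lower, and Tle4 lost its call without HBC library 1 (limma adjusted p = 0.0620).

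Of 18 alternative receptors and planar polarity genes, 8 (44.4%) were lower in HBCs and none was called higher, beside 34.2% and 12.8% of all genes tested. The receptor kinase Ror1 was at 1.39, 2.79 and 5.77 in HBC libraries and 38.7 in RBCs (limma adjusted p = 0.0380), and lost its call without HBC library 1 (0.0736) or 2 (0.132) and with values as deposited (0.0581). Daam2, a formin that acts with Dishevelled, averaged 1.36 ± 0.0735 in HBCs against 21.3 in RBCs. Prickle2 averaged 1.71 ± 0.156 in HBCs against 16.5 in RBCs, and Celsr3, which passed the filter only through the RBC library, 0.244 ± 0.163 against 7.56 (SD, n = 3). Daam2 and Prickle2 would also have failed the filter without signal in the RBC library. Under quantile normalization Daam2, Prickle2 and Celsr3 lost their calls, with log2 changes of -0.89, -0.24 and -0.54 beside -3.24, -2.69 and -2.79 as reported. Of 15 extracellular modulators, 9 (60%) were lower in HBCs and 1 (6.67%) was higher, and Gpc3, Ndp and Cthrc1 among them passed the filter only through the RBC library. Gpc3, a cell surface proteoglycan, was at 1.68, 0.900 and 0 in HBC libraries and 1213 in RBCs (limma adjusted p = 0.00443). Sostdc1, an antagonist of Wnt and BMP signals, averaged 3.64 ± 0.620 in HBCs against 80.5 in RBCs, and the norrin gene Ndp was listed at 0 in each HBC library and at 16.1 in the RBC library. Cthrc1 was at 1.20, 0 and 0 in HBC libraries and 15.4 in RBCs and lost its call without HBC library 2 (limma adjusted p = 0.0869) or 3 (0.0847). The gene that was higher was Frzb, a secreted frizzled-related inhibitor outside the numbered series, at 12.8, 9.24 and 8.45 in HBC libraries and 1.70 in RBCs (limma adjusted p = 0.0148, or 0.0662 without HBC library 2).

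Genes known to respond to Wnt in epithelia, many of which also answer to other pathways, divided between the groups. Of 18 tested, 5 (27.8%) were called higher in HBCs, 8 (44.4%) were called lower and 5 were not called, beside 12.8% higher and 34.2% lower of all genes tested. Zcchc12 and Tbx3, both among the 8, passed the filter only through the RBC library. Higher in HBCs were cyclin D1, Ccnd1 (9.24-fold, 11636 ± 225 against 1259), the AP-1 subunit Fosl1 (19.3-fold, 411 ± 30.0 against 21.3), the hyaluronan receptor Cd44 (3.70-fold, 1972 ± 50.1 against 534) and the growth regulator Myc (2.47-fold, 1343 ± 25.1 against 544). The fifth was the transcription factor Twist1 (2.49-fold, 16.1 ± 0.755 against 6.47). Lower in HBCs were Ascl2, a transcription factor of intestinal stem cells (2.35 ± 0.333 against 62.3), the receptor Tnfrsf19 (21.6 ± 0.440 against 416) and the ephrin receptor Ephb2 (51.1 ± 2.89 against 739). Zcchc12 was at 0, 0 and 0.463 in HBC libraries and 27.9 in RBCs. Limma's adjusted p was between 0.000104 and 0.00489 for the 9 genes whose values are given here. The lower Axin2, Nkd1, Rnf43 and Znrf3 levels in HBCs thus stood beside higher Ccnd1 and Myc levels in the same libraries.

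How far these differences depend on the scaling of the libraries was examined gene by gene. Of the 32 genes called lower in HBCs, 27 stayed so with values as deposited, equal sums or equal medians alike, and 17 did when quantile normalization was added. Rspo1 and Wnt16 did not pass the filter under quantile normalization and were not tested there. Quantile normalization ended the calls of Fzd2, Fzd3, Znrf3, Nkd1, Wif1, Wnt2b, Wnt10b and Rspo3, beside those described above. Wnt7a and Wnt7b stayed higher under all 12 alternatives, although Wnt7a passed the filter only through the HBC libraries. The same 17 genes stayed lower under all 12: Axin2, Dkk3, Fzd7, Fzd10, Lgr4, Lgr5, Lgr6, Rnf43, Sfrp1, Sfrp2, Tcf7l1, Tcf7l2, Wnt3a, Wnt4, Wnt5b, Wnt6 and Wnt10a. Of these 17, Sfrp2, Wnt3a, Wnt5b and Wnt6 passed the filter only through the RBC library. Axin2 and Lgr5, at 1.60 and 1.42 on average in HBC libraries, would also have failed it without signal in the RBC library. For Wnt3a and Wnt5b, leaving out the only HBC library above 0 left no spread among the others, so that alternative says nothing for them.

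**Figure D5:**
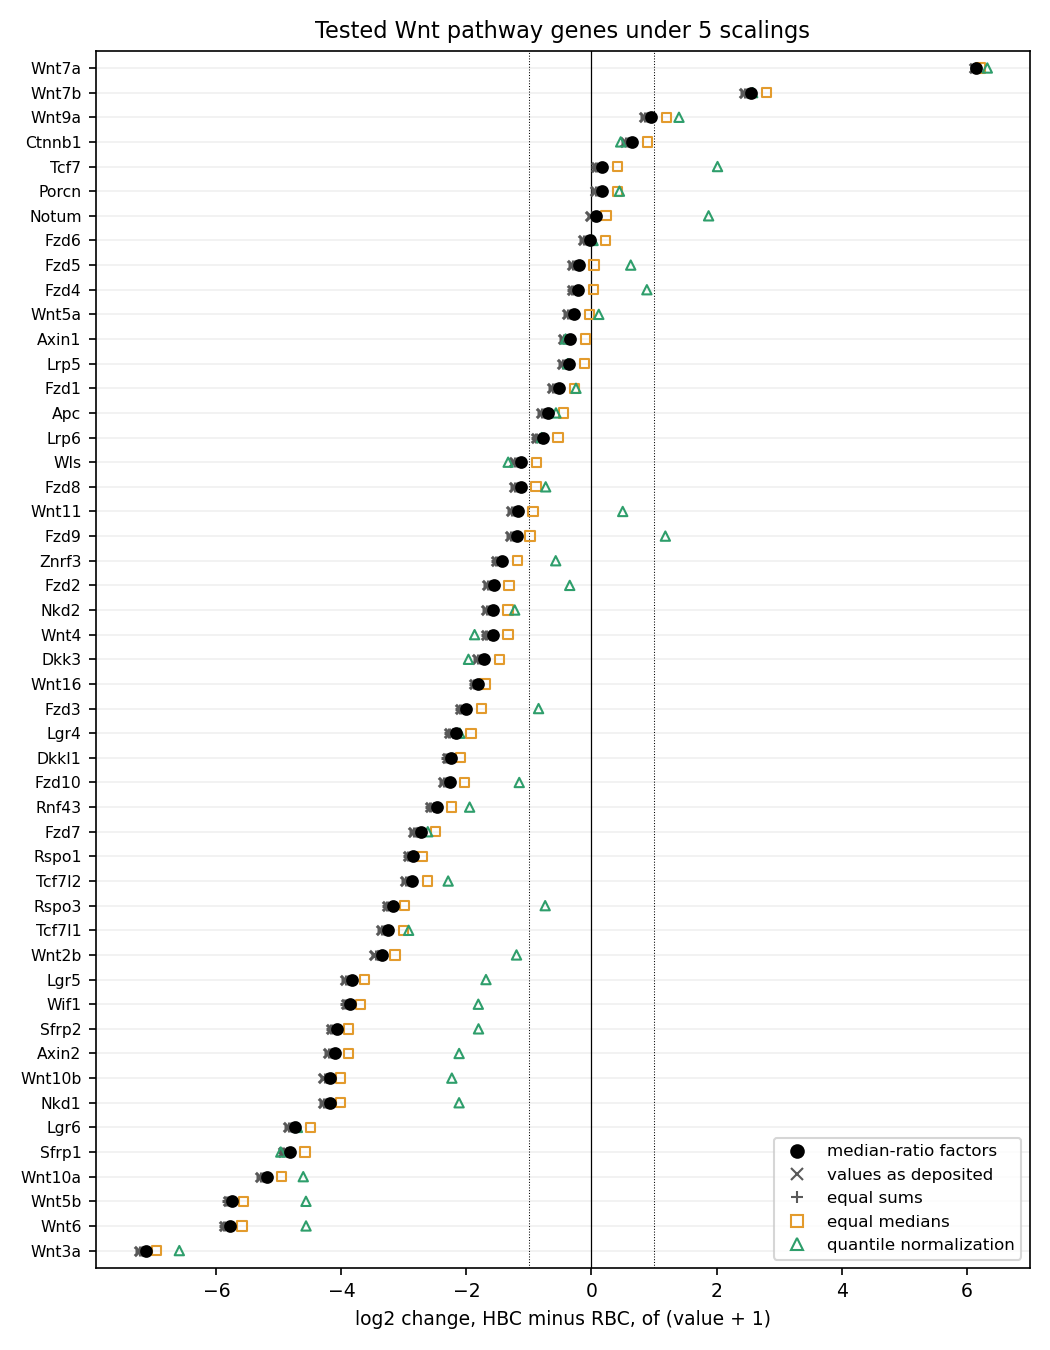
Log2 change (HBC minus RBC, of value + 1) of the 49 tested Wnt pathway genes under 5 scalings of the libraries, with dotted lines at a 2-fold change. Wnt7a and Wnt7b lie right of the lines and genes from Sfrp1 to Wnt3a at the bottom lie left of them under each scaling, while quantile normalization (triangles) gives other values for low genes such as Fzd9 (1.18, beside -1.20 as reported), Wnt11 and Tcf7.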

How the data were processed

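Per the labels, RNA came from a microprep kit in both groups and went into Illumina libraries. STAR, Cufflinks 2.2.1, Cuffnorm and the build mm9 are listed in the submitters' processing notes, without roles. No source used here states the annotation or strand setting. The authors deposited 1 table of values named FPKM, with 1 column per library, matched to samples by column name and title. Their sums were 8377232 to 10855996, and the depth in reads is unknown.

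Among low genes (under 4 in each library compared), 12.4% to 26.0% of ratios between libraries lay within 2% of 1, so a single read appeared to be worth about the same in each library and depth was taken as not divided out. Each library was divided by a median-of-ratios factor from 11134 genes at 10 or more in all libraries (factors 0.845, 1.05 and 1.07 for HBC libraries 1 to 3, and 1.06 for the RBC library). The test was limma 3.58.1 (R 4.3.3) on log2(value + 1) (trend, two-sided, Benjamini-Hochberg, 2 residual degrees of freedom), first tested on simulated data. Changes on that scale understate those of low genes. The simulation gave the lone RBC library the spread of the HBC libraries and changed only genes at a mean of 10 or more. It therefore tests neither that assumption nor the recovery of changes in lower genes. Folds are ratios of scaled values. Alternatives were values as deposited, equal sums, equal medians, quantile normalization, pseudocounts of 0.1 and 10, no filter, a minimum of 5, no trend and leaving out each HBC library. No p is printed for genes at 0 in all HBC libraries.

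The genes, lists and tests were chosen with earlier results of these data known. Named by rule were Sfrp1, Lgr6 and Axin2, up to 14 called genes per direction by log2 change, up to 12 uncalled genes by level, and up to 4 per direction in each further list (94 of 95 entries were found). The other genes were described to complete their families, after their values were seen. In RefSeq, 27 of the 64 genes overlap another gene, 7 of them (Fzd4, Lgr5, Tcf7, Wnt2b, Wnt3, Wnt5b, Wnt9b) a protein-coding one, so their reads may be shared. Sequences are from RefSeq, GRCm38.p6.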

Additional observations from a re-analysis of the deposited data

How the results depend on the processing

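No paired analysis was possible because the RBC group has 1 library, and nothing in the labels pairs it with an HBC library. Under quantile normalization 6 Wnt pathway genes were called higher in HBCs and 19 lower, against 2 and 32 in the reported analysis, with 13 further pathway genes higher (7 reported) and, over all genes, 3603 higher and 3050 lower (2105 and 5619 reported). Of all called genes, 54.2% were higher in HBCs there, 36.4% with equal medians and 27.3% as reported, and the median log2 change of all genes was 0.14, -0.20 and -0.45. Values as deposited gave -0.56 and equal sums -0.55. The cause was not tested. Directions turned for Fzd4 (0.89 under quantile normalization, 0.0322 with equal medians), Fzd5 (0.63 and 0.0422), Fzd6 (0.0253 and 0.22), Fzd9 (1.18), Wnt11 (0.50) and Wnt5a (0.12) under quantile normalization, and for Notum with values as deposited (-0.0164). Leaving out 1 HBC library gave -0.0389 to 0.0288 for Fzd6 and -0.13 to 0.24 for Notum. It gave 29 to 31 Wnt pathway genes called lower, 2 higher, and 28 of the 32 kept under each omission. Such fits have 1 residual degree of freedom and assume that the lone RBC library varies like the HBC libraries. The 28 include Rspo1, Wnt16, Wif1, Wnt10b, Wnt3a and Wnt5b. For these an omission can leave every remaining HBC value at 0, without spread, so that their kept calls say nothing. Of 581 values of single Wnt pathway genes under the alternatives, 539 kept their direction and side of the threshold, 25 lost the call, 5 gained it and 12 turned. One gain, of Dkkl1 without HBC library 2, came with every remaining HBC value at 0 and is void. Levels of a few depth-scaled FPKM rest on few reads, which limits Axin2, Lgr5, Nkd1 and the low ligand genes in HBCs.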
